A study of Mus musculus with 23 samples.

Results

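The genes that encode heat shock proteins and the other helpers of protein folding were read across the hippocampus of 23 mice. They were chosen by gene symbol: symbols that begin with Hspa, Hspb, Hspd, Hspe, Hsph, Hsp90, Dnaj, Pdia or Cct and a digit, together with Tcp1, Canx, Calr, P4hb, Ddit3, Atf4 and Xbp1. The rule found 66 genes among the 8251 genes that had a probe set with 1 symbol. A probe set is a group of short probes that together measure 1 transcript, and 20 of the 66 genes had more than 1, so each gene was represented by its probe set of highest mean signal. The mice were male C57BL/6JNIA animals, 14 aged 15 months and 9 aged 2 months, with 1 Affymetrix array of RNA from the whole hippocampus per mouse. Before the tissue was taken, mice of both ages went through training in a water maze (Morris), a task of spatial memory. The labels name no genetic change and no drug. The question behind the series is how hippocampal gene expression of young mice compares with that of middle age.

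Chaperones bind proteins that are unfolded or newly made and keep them from clumping until they fold. Proteins of the HSP70 family do this in cycles of ATP use that are started by J-domain co-chaperones, HSP90 acts late on kinases and steroid receptors, and the ring-shaped TRiC and HSP60 chaperonins enclose their clients in the cytosol and the mitochondrion. The endoplasmic reticulum has its own set, led by the HSP70 protein BiP, and its genes are raised together by the unfolded protein response when folding there falls behind. Neurons have long processes and do not divide, so damaged proteins are not diluted by cell division.

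No gene of the family passed the test between the ages. Of the 66 genes, 59 were bright enough to be tested and 7 were too dim (Hspa1l, Dnajb3, Dnajb8, Cct6b, Calr, Pdia5 and Hspb1), the limit being a mean signal of about 91.7. In limma with Benjamini-Hochberg adjustment over all 7453 probe sets tested, 0 of 59 genes passed a false discovery rate of 0.05, and the lowest adjusted p was 0.147. Of all the probe sets tested 0.376% passed, 0.335% higher and 0.0403% lower at 15 months. At an unadjusted p under 0.05 there were 6 of the 59 genes, 2 higher and 4 lower at 15 months, which is 10.2% of them. The shares of all probe sets at that p were 12.4% in all, 5.89% higher and 6.51% lower, so that the share of the folding genes was near the background. An exact Mann-Whitney test called 0 of the 59 as well. In whole tissue, fewer cells of a type and less RNA per cell cannot be told apart.

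The data limited most of the differences to a small size. Log2 changes, 15-month minus 2-month on the scale of log2(signal + 16), lay between -0.34 and 0.31, with 26 above 0, 33 below 0 and a median of -0.01, against -0.02 for all probe sets. The median standard error (SE) was 0.09. For 56 of the 59 genes the whole 95% interval of the age difference lay within 1.5-fold either way. Among all probe sets the share within 1.5-fold was 92.0%. The genes whose interval reached past 1.5-fold were Dnajb5, Hsp90aa1 and Hspd1. The signals of the ages overlapped for each of the 59 genes, and they were apart in 0.0537% of all probe sets, so that overlap is the common case.

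**Figure D1:**
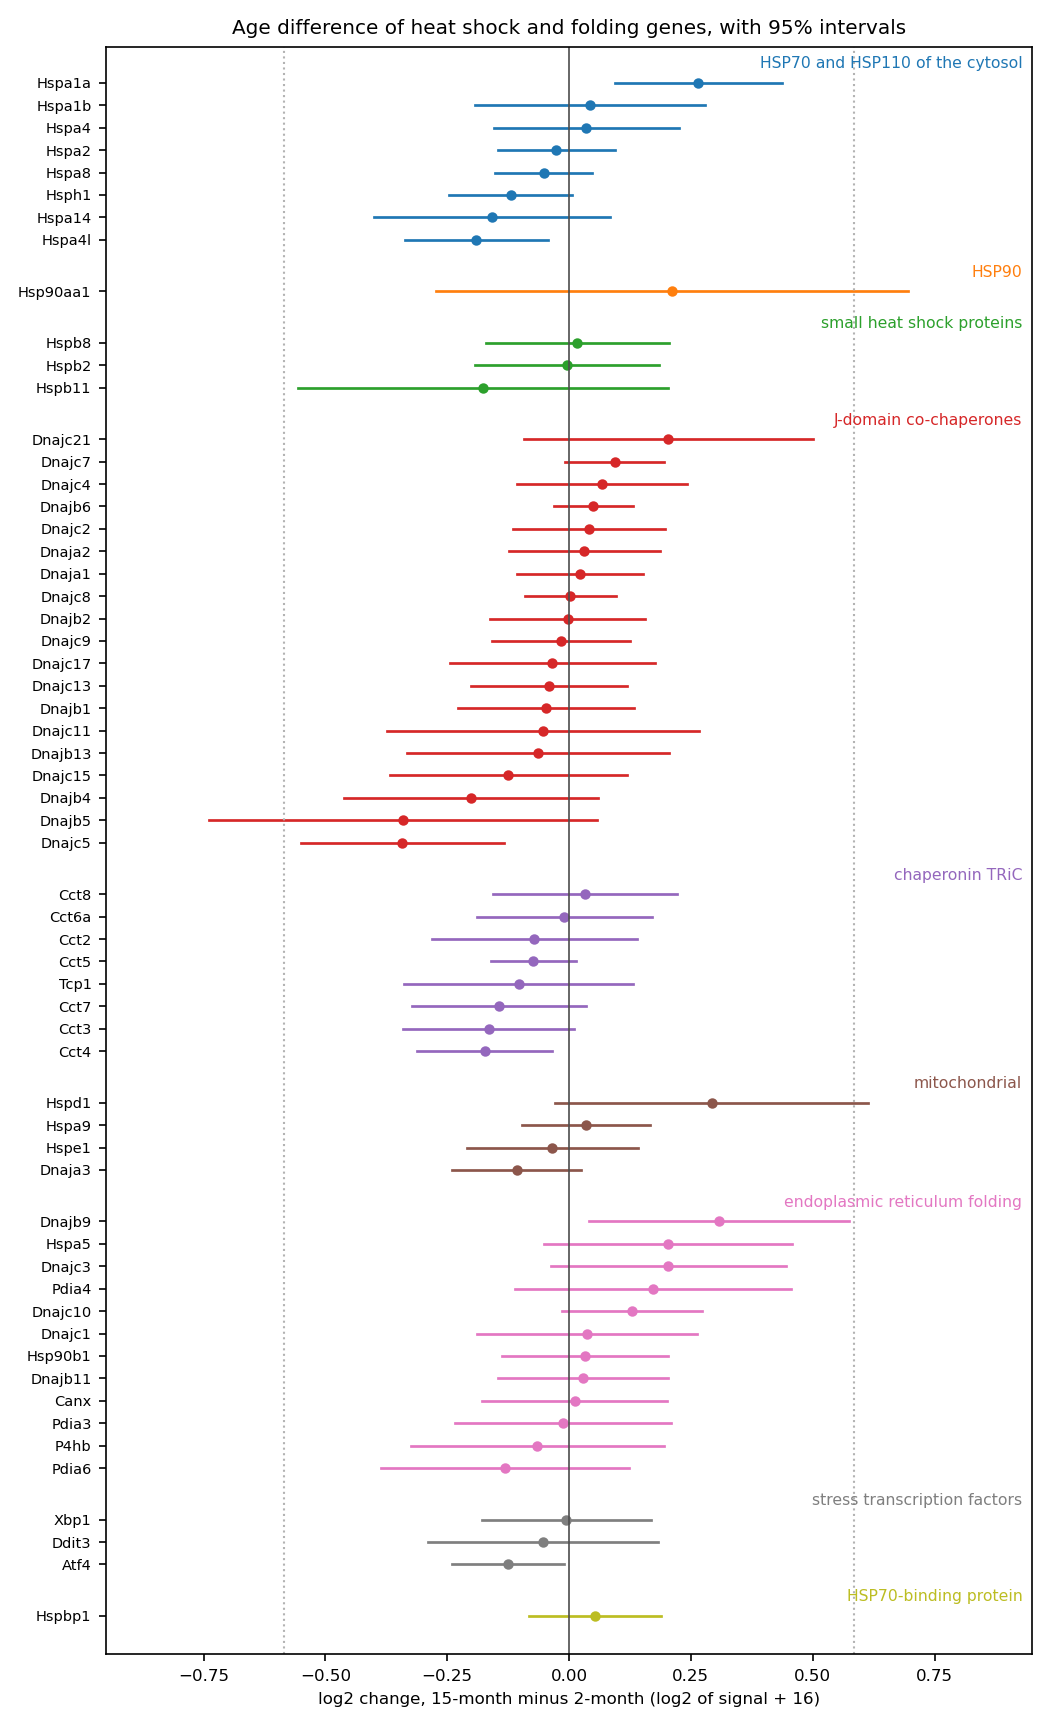
Each point is the log2 change of 1 gene, 15-month minus 2-month (n = 14 and 9 mice), and each bar is its 95% interval from limma. Colours mark the role groups, the solid line marks no difference and the dotted lines mark 1.5-fold either way. No gene passed after adjustment, and 3 bars (Dnajb5, Hsp90aa1 and Hspd1) reach past a dotted line.

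The arrays and tissue gave the following background. Median signals of the arrays were between 154 and 188, and of 5 array measures compared between the ages by exact permutation 0 passed (lowest p 0.208, adjusted p 0.639). The array of 15-month replicate 13 stood apart. It had the highest median, a 25th percentile of 53.4 and a mean correlation with the other arrays of 0.947. On the other arrays the 25th percentile was at most 41.8 and the mean correlation at least 0.966. Neuronal markers of the hippocampus were present in both ages, with 6 of the 8 that had a probe set bright enough to test, among them Neurod6 at 940 ± 219 (SD, n = 14) at 15 months and 1052 ± 140 (SD, n = 9) at 2 months. None of the 6 passed. Log2 changes were -0.23 ± 0.13 SE for Camk2a, -0.19 ± 0.12 SE for Neurod6 and -0.08 ± 0.10 SE for Wfs1. For Neurod2, Snap25 and Zbtb20 they were -0.01 ± 0.11 SE, 0.02 ± 0.07 SE and 0.13 ± 0.09 SE. The summed signal of 5 microglial markers ranged from 4140 to 5221 at 15 months and from 3248 to 4293 at 2 months, and 1 of the 5, the protease gene Ctss, passed (log2 change 0.50 ± 0.06 SE, limma adjusted p = 9.3e-06). Ctss made up most of the difference in that sum, with means of 2443 ± 219 and 1725 ± 153. Aif1 and Tyrobp had log2 changes of 0.48 ± 0.18 SE (limma adjusted p = 0.258) and 0.26 ± 0.08 SE (limma adjusted p = 0.179) and did not pass. Csf1r and Cx3cr1 had log2 changes of 0.01 ± 0.08 SE and 0.01 ± 0.11 SE. The summed signal of 4 astrocyte markers ranged from 6378 to 8911 and from 4491 to 7347, with 0 of 4 past the threshold. Their log2 changes differed, at 0.45 ± 0.11 SE for Gfap (limma adjusted p = 0.0851) and 0.18 ± 0.08 SE for Gja1. Slc1a2 had 0.03 ± 0.11 SE and Aqp4 -0.15 ± 0.10 SE. The part of these cells in the age differences below was not tested. Summed markers of the choroid plexus, which lies next to the hippocampus, ranged from 389 to 11414 at 15 months and from 254 to 10446 at 2 months. The 99th percentile of signals was lowest on 4 arrays, those of replicates 3 and 12 at 15 months and replicates 7 and 8 at 2 months, at 6677 to 7116.

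The cytosolic HSP70 and HSP110 group had 9 genes, of which 8 were tested, and 0 of 8 passed. Their changes ran from -0.19 to 0.27 with a median of -0.04, 3 above 0 and 5 below. Hspa1a encodes an HSP70 protein that cells make in large amounts after heat or other stress. Its signal at 15 months was 728 in the lowest mouse, 856 in the median and 1121 in the highest, and at 2 months it was 581, 714 and 1016. All 14 older mice lay above the mean of the young mice, but only 2 of them lay above the highest young mouse. Here and below, such counts are against the young mean of the log2 values. Ratios of ages are the limma log2 change turned back to fold, not quotients of the means. The means were 871 ± 107 (SD, n = 14) and 727 ± 134 (SD, n = 9). The ratio was 1.20 with an interval from 1.07 to 1.35, and the difference did not pass (log2 change 0.27 ± 0.08 SE, limma adjusted p = 0.175). Without 2-month replicate 9, the young mouse of highest signal, it passed at an adjusted p of 0.0435 with a change of 0.33. Hspa1b, a second copy that encodes nearly the same protein, stood at 376 ± 68.7 and 369 ± 93.7, and its log2 change was 0.04 ± 0.12 SE. How far probes of each copy also bind the transcript of the other was not tested.

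Hspa4l, which encodes an HSP110-type partner that exchanges the nucleotide of HSP70, lay on the other side of 0. Its signal was 461, 663 and 748 in the lowest, median and highest mouse of 15 months, and 667, 735 and 849 at 2 months. None of the 14 older mice reached the mean of the young mice, and 7 lay below the lowest young mouse. The ratio of ages was 0.877, with an interval from 0.792 to 0.971, and did not pass (log2 change -0.19 ± 0.07 SE, limma adjusted p = 0.270). Hsph1, another HSP110 gene, had 4622 ± 469 at 15 months and 5021 ± 487 at 2 months, with 2 of 14 older mice above the young mean and a log2 change of -0.12 ± 0.06 SE.

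Hspa8 is the constitutive HSP70 gene, whose protein also uncoats clathrin vesicles at synapses. Its signal was 4425 ± 362 at 15 months and 4584 ± 284 at 2 months, with a log2 change of -0.05 ± 0.05 SE. Hspa4 had 5276 ± 983 and 5099 ± 603, and its log2 change was 0.04 ± 0.09 SE.

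Hsp90aa1, the stress-inducible form of cytosolic HSP90, was the only HSP90 gene of the cytosol measured here under its own symbol. Its signal was 7812, 14274 and 17203 in the lowest, median and highest mouse at 15 months, and 2449, 13687 and 16736 at 2 months. The medians were close, and the lowest young mouse, 2-month replicate 1, stood far below the other 8, whose signals began at 10997. With all mice the log2 change was 0.21 ± 0.23 SE, the widest error in the family (limma adjusted p = 0.753). Without 2-month replicate 1 it was -0.06, so that this mouse set the sign. The same mouse was the lowest of its age for Hspd1 (1402) and Hspa5 (1398), and it held the lowest signal of all 23 mice for 6 of the 59 genes. Other mice held as many or more of the lowest signals, 15-month replicate 10 in 11 genes, 15-month replicate 13 in 8 and 2-month replicate 5 in 6. The 99th percentile of its array was 7579, above those of the 4 arrays just named.

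**Figure D2:**
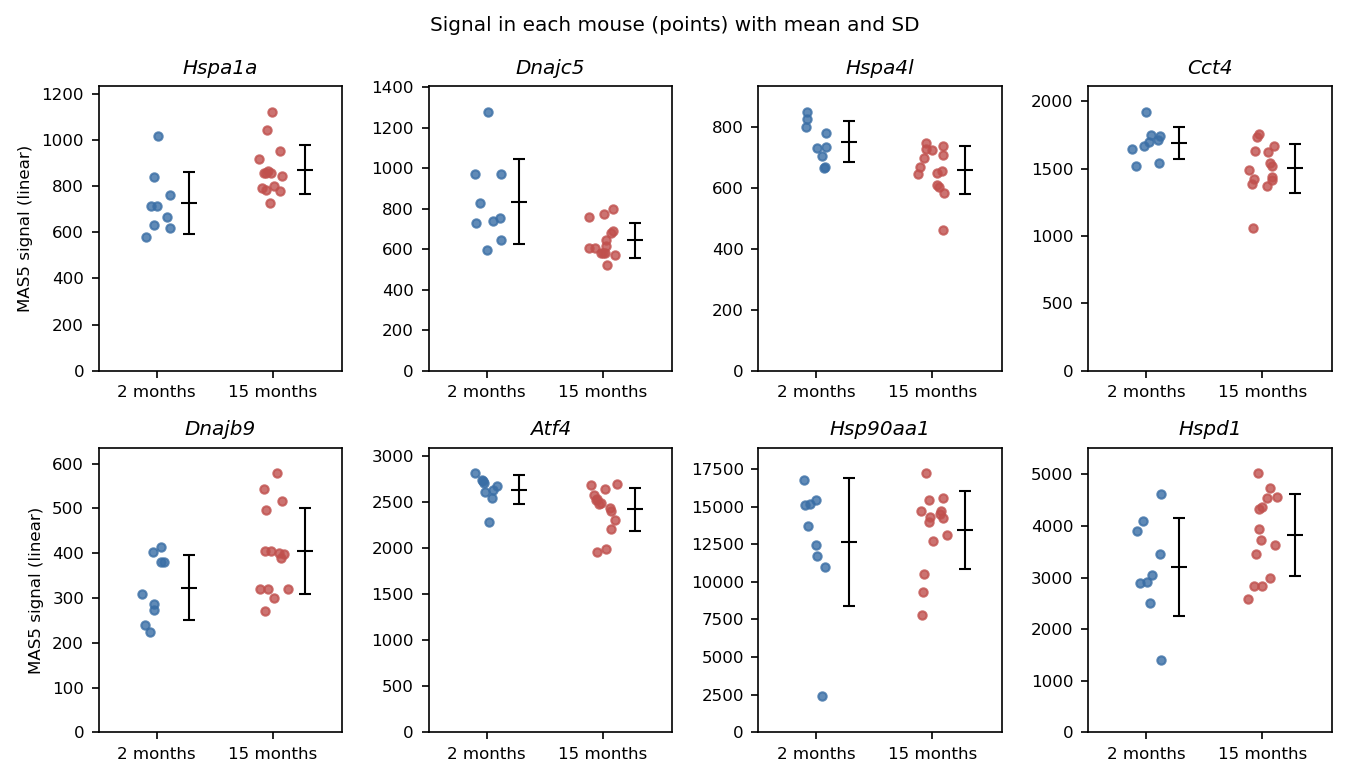
Signal of 8 genes in each mouse on linear axes that start at 0, with 2-month mice in blue (n = 9) and 15-month mice in red (n = 14), and bars for the mean and SD of each age. The ages overlap in all 8 panels, and in the Hsp90aa1 panel 1 young mouse lies at 2449, far below the rest.

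The J-domain co-chaperones, which deliver clients to HSP70 and start its ATP use, were the largest group with 21 genes, of which 19 were tested and 0 passed. Their changes had a median of -0.02, with 8 above 0 and 11 below. Dnajc5 had the lowest p of the whole family. It encodes CSPα, a protein of synaptic vesicles that with HSP70 keeps the release protein SNAP25 folded. Its signal was 521, 611 and 799 in the lowest, median and highest mouse of 15 months, and 599, 753 and 1279 at 2 months. None of the 14 older mice reached the young mean of 836 ± 210 (SD, n = 9), and 5 lay below the lowest young mouse, while the older mean was 644 ± 85.2 (SD, n = 14). Taken from the log2 change, the ratio was 0.789 with an interval from 0.683 to 0.911, and it did not pass (log2 change -0.34 ± 0.10 SE, limma adjusted p = 0.147). Over all alternatives its adjusted p ran from 0.0664, without the 4 arrays of low 99th percentile, to 0.298. Snap25 itself, the client just named, had 12552 ± 1485 and 12330 ± 1245, with a log2 change of 0.02 ± 0.07 SE.

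The other J-domain genes named by the rule had smaller or less certain differences. Dnajb5 had 371 ± 118 and 469 ± 144, with a log2 change of -0.34 ± 0.19 SE and an interval from -0.74 to 0.06. Dnajb4 stood at -0.20 ± 0.13 SE, Dnajc15 at -0.13 ± 0.12 SE and Dnajc21 at 0.20 ± 0.14 SE on the log2 scale. The Dnajc15 change was -0.23 without the 4 arrays of low 99th percentile and -0.07 without 15-month replicate 13. Dnajc7, a co-chaperone that binds both HSP70 and HSP90, had 2169 ± 124 and 2036 ± 181. On the log2 scale 13 of 14 older mice were above the young mean, with a change of 0.09 ± 0.05 SE (limma adjusted p = 0.443). Among the bright genes Dnaja1 stood at 0.02 ± 0.06 SE, Dnajc8 at 0.00 ± 0.05 SE and Dnajb6, which keeps polyglutamine proteins from aggregating, at 0.05 ± 0.04 SE.

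TRiC is a chaperonin of paired rings that folds actin and tubulin, and each ring holds 1 copy of each of its subunits. The group had 9 genes, including the testis form Cct6b, which was too dim to test. Of the 8 tested, 7 had a change below 0 and 1 above, with a median of -0.09 and a range from -0.17 to 0.03, and 0 of 8 passed. Of all probe sets, 55.0% had a change below 0. Cct4 had the lowest p, with signals of 1057, 1504 and 1756 in the lowest, median and highest mouse at 15 months and of 1520, 1698 and 1921 at 2 months. In 7 of the 14 older mice the Cct4 signal was below that of every young mouse, and 2 of 14 were above the young mean. Its ratio was 0.887, with an interval from 0.805 to 0.976 (log2 change -0.17 ± 0.07 SE, limma adjusted p = 0.288). The lowest older mouse, 15-month replicate 14, stood apart from the next lowest at 1368. Over all alternatives the Cct4 change ran from -0.19 to -0.14. Cct3 stood at -0.16 ± 0.09 SE, Cct7 at -0.14 ± 0.09 SE, Tcp1 at -0.10 ± 0.11 SE, Cct5 at -0.07 ± 0.04 SE and Cct6a at -0.01 ± 0.09 SE. The Tcp1 change was -0.16 without the 4 arrays of low 99th percentile and -0.05 without 15-month replicate 7. The subunits of the complex share 1 set of mice, so that 7 of 8 on the same side is a description and not a test.

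The signals of the TRiC subunits were also set beside each other across mice. Among the 28 pairs of the 8 genes, the median correlation over the 23 mice was 0.09 after the mean of each age was taken off, and 1 pair exceeded 0.5. That pair was Cct2 with Tcp1, with a Pearson r of 0.56 (permutation adjusted p = 0.0124 over 10 pairs of folding genes) and a Spearman rho of 0.61. Within the ages r was 0.53 over 14 mice and 0.62 over 9 mice, and it was 0.64 without the 2 mice farthest from the median of Cct2.

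In the mitochondrion, HSP60 (Hspd1) and its lid HSP10 (Hspe1) form the folding chamber, and mortalin (Hspa9) with the J-domain protein Dnaja3 acts on imported proteins. All 4 were tested and 0 passed. Hspd1 had 2582, 3834 and 5017 in the lowest, median and highest mouse at 15 months, and 1402, 3054 and 4608 at 2 months, with 10 of 14 older mice above the young mean. Its ratio was 1.22 with an interval from 0.98 to 1.53 (log2 change 0.29 ± 0.16 SE, limma adjusted p = 0.451). Without 2-month replicate 1 the change was 0.15, and with the mean of both Hspd1 probe sets in place of the brighter it was 0.03. Hspe1, its partner, had 1420 ± 198 and 1456 ± 213, a log2 change of -0.03 ± 0.09 SE. Hspa9 stood at 0.03 ± 0.06 SE, and Dnaja3 at -0.11 ± 0.06 SE.

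Hspd1 and Hspe1 lie head to head and share the DNA between their start sites. A heat shock element, the site that heat shock factors bind as repeats of GAA and TTC, was searched in the 250 bases before each start site in RefSeq windows of GRCm38.p6. The search took 3 units in a row on both strands, as GAANNTTCNNGAA or TTCNNGAANNTTC, which can overlap each other. It was found in 3 of the 58 family genes that had a window, and in 0.514% of all 27025 genes with one. A window without a match lacks only these exact letters, and some family genes, Hsp90aa1 and Hspa8 among them, had no window. The same bases at chr1:55088059-55088076 serve Hspd1 and Hspe1, read on opposite strands, and are shown because both genes have them. Dnajb6 was the third gene, with a site at chr5:29735852-29735864. Capitals mark the GAA and TTC units, 5 bases stand on each side, and each line is written 5′ to 3′ on the strand of its gene.
Hspd1: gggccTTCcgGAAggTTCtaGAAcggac
Hspe1: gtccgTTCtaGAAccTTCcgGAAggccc
Dnajb6: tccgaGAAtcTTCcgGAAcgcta
The site lies 144 to 127 bases before the Hspd1 start and 89 to 72 bases before the Hspe1 start. Across the 23 mice the signals of this pair had an r of 0.31 (permutation adjusted p = 0.251 over 10 pairs), 0.58 over the 14 older mice and 0.06 over the 9 young mice. The difference between the ages in this correlation was not tested.

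Small heat shock proteins hold unfolded proteins without using ATP. The group had 4 genes taken by symbol, and whether each of them acts in this way was not checked. Of the 3 tested, 0 passed, with changes from -0.18 to 0.02. Hspb1, which encodes HSP27, was too dim to test, with 21.1 ± 33.1 and 23.2 ± 16.6. Its highest older signal was 134.6, in 15-month replicate 13, against a median of 12.05 at that age. Hspb8, a partner of BAG3 in autophagy, stood at 534 ± 91.0 and 524 ± 64.6 (log2 change 0.02 ± 0.09 SE), and Hspb2 at 382 ± 65.1 and 382 ± 55.1 (log2 change -0.00 ± 0.09 SE). Hspbp1, which the rule took by its first letters and which releases nucleotide from HSP70, had a log2 change of 0.05 ± 0.07 SE.

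Of the 14 folding genes of the endoplasmic reticulum 12 were tested, and 0 passed, 9 with a change above 0 and 3 below, with a median of 0.04 and a range from -0.13 to 0.31. Of all probe sets, 45.0% had a change above 0. These genes also share 1 set of mice, so that 9 of 12 on the same side is a description and not a test. Dnajb9, which encodes the BiP co-chaperone ERdj4, had 270, 400 and 578 in the lowest, median and highest mouse at 15 months, and 224, 308 and 413 at 2 months. In 12 of 14 older mice it was above the young mean of the log2 values, and in 4 above every young mouse. Its ratio was 1.24 with an interval from 1.03 to 1.49 (log2 change 0.31 ± 0.13 SE, limma adjusted p = 0.329), and with the mean of both Dnajb9 probe sets the change was 0.20.

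Hspa5, the gene of BiP, had 1720, 2597 and 3410 in the lowest, median and highest mouse at 15 months, and 1398, 2198 and 3599 at 2 months. The young mice spanned the whole range of the older ones. On the log2 scale, 13 of 14 older mice were above the young mean. The ratio was 1.15 with an interval from 0.965 to 1.37 (log2 change 0.20 ± 0.12 SE, limma adjusted p = 0.514). The change was 0.12 without 2-month replicate 1, the lowest young mouse, and 0.29 without 2-month replicate 9. Dnajc3, which encodes the co-chaperone p58IPK, had 330 ± 69.8 and 282 ± 49.9, with 6 of 14 older mice above every young mouse and a log2 change of 0.20 ± 0.12 SE. Dnajc10, a J-domain disulfide reductase, stood at 0.13 ± 0.07 SE with 12 of 14 older mice above the young mean.

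The remaining named genes of this compartment had changes between -0.07 and 0.17. Pdia4, a disulfide isomerase, had 563 ± 141 and 492.8 ± 110 and a log2 change of 0.17 ± 0.14 SE. Hsp90b1, the gene of GRP94, had 2633 ± 368 and 2562 ± 311, a change of 0.03 ± 0.08 SE. The lectin chaperone Canx had 597 ± 75.5 and 597 ± 105, a change of 0.01 ± 0.09 SE. P4hb, the founding disulfide isomerase, stood at -0.07 ± 0.13 SE. Calr, the soluble partner of Canx, had a probe set that was near background, at 18.9 ± 23.9 and 8.41 ± 6.98, so that no statement on calreticulin can be made from it.

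Across individual mice, Hspa5 varied together with several genes of its compartment. Of 10 pairs of folding genes chosen for correlation, 5 passed after adjustment over the 10 pairs, and 4 of these had Hspa5 in them. With the age means taken off and 23 mice, r was 0.68 with Pdia4 (permutation adjusted p = 0.0012), 0.66 with Pdia6 (permutation adjusted p = 0.0036), 0.57 with Hsp90b1 (permutation adjusted p = 0.0091) and 0.54 with the transcription factor Xbp1 (permutation adjusted p = 0.0091). Spearman's rho was 0.67 with Pdia4, 0.62 with Pdia6, 0.70 with Xbp1 and 0.38 with Hsp90b1, where it did not pass (permutation adjusted p = 0.125). Both ages had the same sign in each of these pairs. For Pdia4, r was 0.67 in the 14 older and 0.80 in the 9 young mice, for Pdia6 0.71 and 0.66, for Hsp90b1 0.50 and 0.74, and for Xbp1 0.49 and 0.73. Within the ages, adjusted over the 10 pairs, Pdia4 and Pdia6 passed at 15 months (permutation adjusted p = 0.0277 each), Hsp90b1 and Xbp1 did not (0.127 each), and at 2 months 0 of the 4 passed (exact adjusted p from 0.0607 to 0.111). The rank correlation of Hsp90b1 was 0.11 in the older mice. Without the 2 mice farthest from the median of Hspa5, 2-month replicates 1 and 9, r was 0.58, 0.62, 0.54 and 0.54 in the same order, and all 4 still passed.

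**Figure D3:**
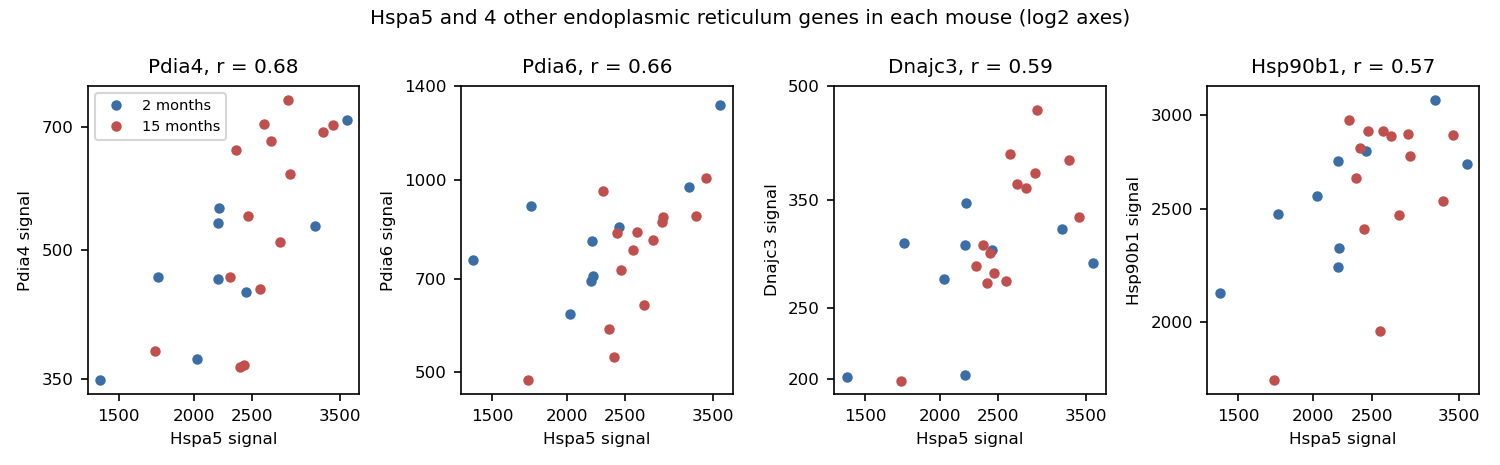
Signal of Hspa5 against that of Pdia4, Pdia6, Dnajc3 and Hsp90b1 on log2 axes, 1 point per mouse, blue for 2 months (n = 9) and red for 15 months (n = 14). The r above each panel is over all 23 mice with the age means taken off, and lies between 0.57 and 0.68.

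The relation was then described for all 11 other tested genes of the compartment, a set looked at after the first pairs were known and given without a test. Beside the genes above, r with Hspa5 was 0.59 for Dnajc3, 0.57 for Dnajb11, 0.50 for Pdia3 and 0.44 for Dnajb9. It was 0.21 for Canx, 0.10 for Dnajc10, 0.08 for P4hb and -0.27 for Dnajc1. For P4hb the ages had opposite signs, -0.50 at 15 months and 0.62 at 2 months, and so they had for Dnajc10, 0.36 and -0.18. Dnajb11 encodes ERdj3, a co-chaperone of BiP, and Pdia3 encodes the disulfide isomerase that works with calnexin. Among the 7452 other probe sets ranked by their r with Hspa5, Pdia4 was at rank 22, Pdia6 at 40, Dnajc3 at 108, Dnajb11 at 146, Hsp90b1 at 161 and Pdia3 at 292. The nearest of all were Hnrnpm (0.76), Sucla2 (0.75) and Egr1 (0.74), which are no folding genes, so that genes outside the compartment went with Hspa5 as closely. All of these values come from the same arrays and share their scaling.

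Pairs above 0.5 made up 14 of the 66 pairs within the compartment, or 21.2%, with a median r of 0.18. Among the 1711 pairs of all 59 tested family genes they were 4.56%, with a median of 0.04, and among all pairs of probe sets 2.29%. In the cytosolic HSP70 group 3 of 28 pairs exceeded 0.5, and among the J-domain genes 4 of 171. Hspa8 and Hspa5, the main constitutive HSP70 genes of the cytosol and of the endoplasmic reticulum, had an r of 0.13. The cytosolic pairs Hspa8 with Hsp90aa1 (0.23) and Hspa8 with Hsph1 (0.15) did not pass either. For 9 lists of cell type markers, the mean log2 value of the markers bright enough to test was taken. These means and 5 array measures were set beside Hspa5 in the same way, and 0 of these 14 relations passed. The largest r was 0.48, for astrocyte markers (Spearman rho 0.22, permutation adjusted p = 0.368), and the smallest was -0.43, for markers of striatum and thalamus (rho -0.48, permutation adjusted p = 0.368).

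**Figure D4:**
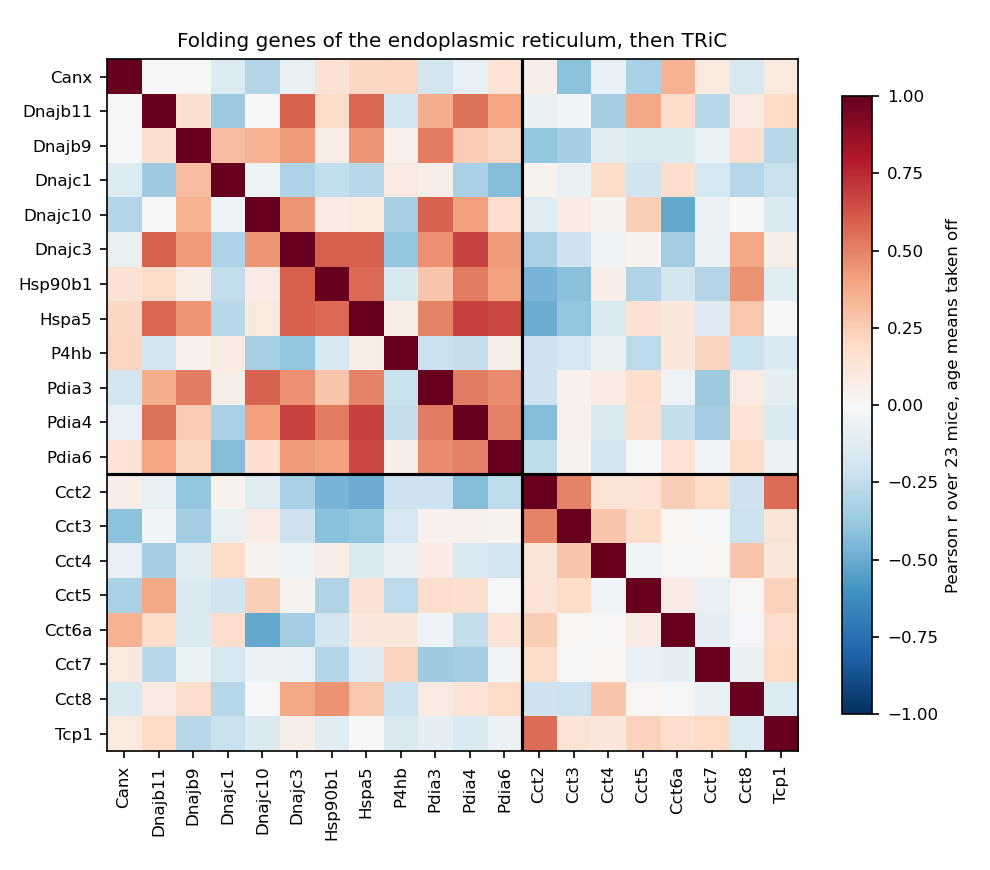
Pearson r for each pair of the 12 tested endoplasmic reticulum genes (top left) and the 8 tested TRiC genes (bottom right) over 23 mice with the age means taken off, red for positive and blue for negative. A block of Dnajb11, Dnajc3, Hsp90b1, Hspa5, Pdia3, Pdia4 and Pdia6 is positive throughout, while most pairs of Canx, Dnajc1 and P4hb are pale or blue, and in TRiC 1 pair, Cct2 with Tcp1, exceeds 0.5.

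The promoters of these genes were searched for the endoplasmic reticulum stress element, to which the factors ATF6 and NF-Y bind. Its letters are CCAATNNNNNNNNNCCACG, searched on both strands in the 250 bases before each start site in the RefSeq windows of GRCm38.p6. It was found in 6 of the 14 genes of the compartment, in 6 of the 58 family genes with a window, or 10.3%, and in 35 of 27025 genes in all, or 0.13%. The element was first defined on promoters of this very set, so its presence there is no independent finding. The sites are shown because they cover Hspa5 and some, but not all, of the genes that went with it. Capitals mark the fixed letters, 5 bases stand on each side, and each line is written 5′ to 3′ on the strand of its gene, where CGTGG and ATTGG show the element on the opposite strand.
Hspa5: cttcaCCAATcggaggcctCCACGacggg
Pdia6: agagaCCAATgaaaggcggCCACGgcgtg
Dnajc3: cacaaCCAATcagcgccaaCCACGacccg
Hsp90b1, nearer site: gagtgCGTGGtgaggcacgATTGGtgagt
Hsp90b1, farther site: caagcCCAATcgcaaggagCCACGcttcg
Canx: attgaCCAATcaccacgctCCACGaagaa
Calr: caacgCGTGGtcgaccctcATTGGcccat
The elements lie at chr2:34772025-34772043 for Hspa5, chr12:17266491-17266509 for Pdia6, chr14:118937827-118937845 for Dnajc3, chr10:86705533-86705551 and chr10:86705638-86705656 for Hsp90b1, chr11:50325800-50325818 for Canx and chr8:84847075-84847093 for Calr. They begin between 65 bases (Hspa5) and 212 bases (Hsp90b1, farther site) before the start. Of the genes with a match, Pdia6, Dnajc3 and Hsp90b1 had an r with Hspa5 of 0.57 or more, and Canx had 0.21. Pdia4, the gene of highest r, Dnajb11 (0.57) and Pdia3 (0.50) had no match to these exact letters in their windows, which says only that those letters are not there.

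The whole window of Hspa5 is given for its context, chr2:34771840-34772089 on the plus strand, ending at the last base before the start site, with the fixed letters of the exact element in capitals.
Hspa5 window: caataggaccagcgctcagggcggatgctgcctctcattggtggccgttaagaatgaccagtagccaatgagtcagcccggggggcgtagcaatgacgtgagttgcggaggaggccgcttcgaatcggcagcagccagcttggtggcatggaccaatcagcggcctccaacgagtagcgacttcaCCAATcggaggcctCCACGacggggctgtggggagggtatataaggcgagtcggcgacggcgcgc

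Of the stress transcription factors, Atf4 raises genes of amino acid supply when translation is slowed, Ddit3 encodes CHOP, which acts after lasting stress, and Xbp1 is spliced into an active form by IRE1. All 3 were tested and 0 passed. Atf4 had 1953, 2479 and 2689 in the lowest, median and highest mouse at 15 months, and 2277, 2666 and 2807 at 2 months, with 3 of 14 older mice above the young mean. Its ratio was 0.917 with an interval from 0.846 to 0.993 (log2 change -0.13 ± 0.06 SE, limma adjusted p = 0.363). Ddit3 had 312 ± 56.9 and 328 ± 74.0, a change of -0.05 ± 0.12 SE. Xbp1 had 860 ± 134 and 858 ± 94.5, a change of -0.01 ± 0.08 SE, and its spliced and unspliced forms are not separated in these values. Atf4 with Ddit3 had an r of 0.32 over the 23 mice, 0.11 at 15 months and 0.78 at 2 months, and did not pass (permutation adjusted p = 0.202).

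Other genes of the folding pathway were taken from a list of 110 symbols, of which 83 had a probe set and 72 were tested. None of the 72 passed in limma, with 5 higher and 4 lower at an unadjusted p under 0.05, against shares of 5.89% and 6.51% of all probe sets, which is near the background. Their median change was -0.03, with 30 above 0 and 42 below. The gene of lowest p was Sec61a1, the channel through which proteins enter the endoplasmic reticulum. It had 1516 ± 87.8 (SD, n = 14) and 1716 ± 61.2 (SD, n = 9), and 12 of the 14 older mice lay below the lowest young mouse. Its log2 change was -0.18 ± 0.04 SE, with an adjusted p of 0.0605 in limma. It passed at an adjusted p of 0.0106 in the exact Mann-Whitney test, 0.0267 after quantile normalisation, 0.0451 with a stricter filter on dim probe sets and 0.0404 with an array's 25th percentile as a covariate. It also passed without 15-month replicate 1 (0.0374) or 15-month replicate 9 (0.0409), and the highest adjusted p over all alternatives was 0.216.

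Genes of the degradation pathway of the endoplasmic reticulum lay on both sides of 0. Sel1l, which holds the ubiquitin ligase of this pathway together, had 732 ± 64.8 and 854 ± 124, with none of 14 older mice above the young mean (log2 change -0.21 ± 0.07 SE, limma adjusted p = 0.228). Herpud1, a partner in the same complex, had 879 ± 105 and 758 ± 131. On the log2 scale 13 of 14 older mice lay above the young mean, with a change of 0.22 ± 0.08 SE (limma adjusted p = 0.282). Derl1 stood at 0.18 ± 0.07 SE. The ATF4 target Asns had 4261 ± 300 and 4631 ± 300, a change of -0.12 ± 0.05 SE. With the mean of each gene's probe sets in place of the brightest, the changes were -0.03 for Sel1l, 0.05 for Derl1 and -0.01 for Asns. Among the co-chaperones, the glucocorticoid-responsive HSP90 partner Fkbp5 had 1612 ± 344 and 1336 ± 119, with 7 of 14 older mice above every young mouse (log2 change 0.25 ± 0.10 SE, limma adjusted p = 0.285). Stip1, which links HSP70 to HSP90, stood at -0.03 ± 0.10 SE, and Cryab at 0.12 ± 0.10 SE, or 0.06 without 2-month replicate 5. Hyou1 was too dim to test, at 2.18 ± 1.43 and 2.51 ± 2.50.

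The spread between mice was compared as well. The SD of the log2 values was larger at 2 months for 26 of the 59 genes, against 41.8% of all probe sets. Tested with limma on the deviations from the age mean, 0 of 59 genes passed, with 1 at an unadjusted p under 0.05, and the lowest adjusted p was 0.703. Of all probe sets, 0 of 7453 passed and 6.7% had an unadjusted p under 0.05. The gene of lowest p was the TRiC subunit Cct6a, with an SD of 0.17 at 15 months and 0.26 at 2 months, followed by Dnajc5 with 0.18 and 0.33. A miss in this test does not show that the spreads are alike.

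Probe sets of the same gene often disagreed. For 11 genes at least 2 probe sets were bright enough to test, 26 in all, and in 5 genes their changes differed in sign. Over 15 pairs of the brightest with another probe set of its gene, the median r across mice was 0.08 with the age means taken off, and 7 were below 0. Both pairs that passed were of Pdia6, with an r of 0.82 and 0.61. The brightest probe set of Hspa4 had an r between -0.41 and -0.28 with 3 others. Hspd1 had a change of 0.29 in its brighter and -0.24 in its dimmer probe set, Dnajc3 had 0.20 and -0.05, and Dnajc8 had 0.00 and -0.27. Counted 1 by 1, 0 of the 74 family probe sets that could be tested passed.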

How the data were processed

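The deposited values are linear intensities, 1 per probe set and array. Per the submitters' processing notes the tool was MAS5, and no source used here gives its version or settings. The trimmed mean (2% at each end) was 500.3 on every array, so arrays had been scaled alike and were not normalised further. No pair of arrays shared more than 44 identical values. Gene names came from the platform annotation, and 2 probe sets with several symbols were left out.

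Signals were taken as log2(signal + 16), which understates changes of dim genes. The 7453 of 12422 non-control probe sets above the 40th percentile of mean log2 value were tested with limma 3.58.1 in R 4.3.3 (lmFit, eBayes with trend and robust variance). Tests were two-sided, and p-values were adjusted by Benjamini-Hochberg over all of them. Age came from the labels, and replicate numbers only name mice. The titles number the mice in ranges that differ by age, so any effect of handling order cannot be told apart from age. The labels call the samples biological replicates. Correlations used 100000 permutations within ages, or all pairings (exact) for 9 mice, with numpy 2.4.6 and scipy 1.17.1. Array measures were compared over all 817190 regroupings. Scripts were tested on simulated data. The number of arrays limits the precision.

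Members, lists, pairs and tests were chosen with earlier results of these data known. Genes named are the 10 of lowest p in each direction, the 2 brightest of each role group, the 3 of lowest spread p in each direction, a fixed list of well-known chaperones, and, of the other pathway genes, the 3 of lowest p in each direction and 5 fixed names; genes named for their correlation, their probe sets or a promoter match, and Dnajc5's client Snap25, were chosen after their values were seen. Promoter windows came from RefSeq (GRCm38.p6) and matched 58 of 66 genes. Alternatives were the pseudocount (1 or 64), the filter, quantile or 75th-percentile scaling, the variance model, an array covariate, a rank test, the mean of a gene's probe sets, the 4 arrays of lowest 99th percentile left out, and each array left out in turn.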

Additional observations from a re-analysis of the deposited data

Results flagged for a closer look

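In the 51 named genes, 42 of the family and 9 others, a single 2-month mouse stood apart from the other 8 in 6, by Dixon's test on 9 log2 values (critical ratio 0.493). Chance gives about 1 in 20 groups, but some of these genes were named for their spread, so the count cannot be set against that rate. Among all 59 tested genes of the family, named or not, there were 6. The 14 older mice were not tested in this way, because no critical ratio for 14 mice was set up here. Single older mice that stood apart are therefore not listed. Hsp90aa1 was lowest in 2-month replicate 1, at 2448.6 against 10996.7 to 16736.4 in the others, and Dnaja1 was lowest in 2-month replicate 5, at 3790.1 against 4779.3 to 5565.4. Hspe1 was lowest in 2-month replicate 7, at 1023.3 against 1356.3 to 1746.9. Atf4 was lowest in 2-month replicate 6, at 2277.3 against 2543.6 to 2806.9. In 2 genes too dim to be tested a mouse stood high: Calr in 2-month replicate 9, at 26 against 3 to 10.1, and Hyou1 in 2-month replicate 3, at 9 against 0.9 to 2.7. These 6 values lay in 6 different mice.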

How the results depend on the processing

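Over 11 other settings and 23 fits that each left out 1 array, the count of folding genes past the threshold stayed at 0, except that leaving out 1 array gave 0 to 1: without 2-month replicate 9, Hspa1a passed. The count of other pathway genes went from 0 to 1 (Sec61a1 each time) with the 60th-percentile filter (1), quantile normalisation (1), the 25th percentile as a covariate (1) and the exact Mann-Whitney test (1), and was 0 to 1 when 1 array was left out. The count over all probe sets went from 28 to 61 with the 25th percentile as a covariate, and was 20 to 39 when 1 array was left out; the cause was not tested. The spread test gave 0 folding genes in every setting run. Of the 5 correlations past the threshold, 4 remained by Spearman's rho (Hspa5 with Hsp90b1 did not), and the count was 5 in each other setting. None of the 48 named genes passed in the reported limma fit. Of them, 15 had a change of sign in at least 1 setting, 58 values of 1625. The largest reported change among these 15 genes was 0.21, that of Hsp90aa1. The median change of the folding genes lay between -0.02 and 0.00 in the reported fit and in each of the 11 other settings. It was not computed for the 23 fits that left out 1 array. The planned fit without 15-month replicate 13 is among those that left out 1 array. No paired analysis was possible because the ages were different mice with 1 array each, and the labels' running numbers do not overlap between them. Dim probe sets limit what can be said of Calr, Hspb1 and Hyou1, and 1 probe set per gene limits the rest, since other probe sets of a gene often went another way.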
